A study of Homo sapiens with 9 samples.

Results

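The genes described here are 10 members of the human heat shock response: the HSP70 chaperone genes HSPA6, HSPA1A, HSPA1B and HSPA8, the co-chaperone genes HSPH1, DNAJB1 and BAG3, the small heat shock protein gene HSPB1, the mitochondrial chaperonin gene HSPD1 and the transcription factor gene HSF1. They were taken by symbol, and all 10 were found among the 37247 genes of each of the 2 deposited tables of expected counts. The choice rested on measured values: these genes had been seen to differ between the vehicle libraries of the 2 tables, so that difference is given as a description, without p-values.

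The libraries came from a single commercial line of immortalized human trabecular meshwork cells, the filter tissue through which aqueous humour leaves the eye. All cells spent 24 h without serum on collagen-coated plates, and then 6 h with dexamethasone (DEX, a synthetic glucocorticoid) at 0.1 µM, norepinephrine (NE, an adrenergic agonist) at 1 µM or the vehicle DMSO. The labels list 9 samples, 3 in each group, whereas the tables hold 12 libraries, because each table has 3 vehicle libraries of its own. The vehicle libraries beside DEX carry the names of the labelled vehicle samples, and those beside NE are named for DMSO and were not tied to single labelled samples. The labels do not say whether replicates were separate cultures, so p-values measure the spread between these libraries, part of which may be technical.

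Library totals ranged from 19326830 to 27337259 counts in the DEX table and from 31104094 to 36216506 in the NE table. Vehicle replicate 1 of the NE table stood apart from its group: counts differed from replicates 2 and 3 by a chi-square per degree of freedom of 17.3 and 21.1, against 2.96 between replicates 2 and 3. The label of the cells was only partly borne out by marker genes. VIM was high, at 2548 ± 147 CPM in the vehicle libraries of the DEX table, but MYOC had at most 6 counts and ANGPTL7 at most 11 counts in any library, and MGP, a matrix protein gene of the outflow tissue, was at 1.84 ± 0.66 CPM in those libraries.

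Heat shock proteins are chaperones that bind unfolded protein, keep it from aggregating and help it refold. HSF1 is held inactive in unstressed cells, and on heat, oxidative or proteotoxic stress it forms trimers that bind heat shock elements, inverted repeats of the unit GAA, in the promoters of chaperone genes. HSPA6, HSPA1A and HSPA1B are the stress-inducible members of the HSP70 family, and HSPA8 is the constitutive one. Trabecular meshwork cells live under mechanical and oxidative stress and are known to raise small heat shock proteins such as the product of CRYAB when stressed.

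The promoters of members that carry the heat shock element are shown because the members differ in the number and arrangement of the repeats. RefSeq (GRCh38.p14) windows of 9 of the 10 members were used, and HSF1 was left out of the search by choice. The 250 bases before the RefSeq start of each window were searched for GAANNTTC and TTCNNGAA. Distances count from that start, which can differ from the ends of the gene positions given further below. Each of these letter strings is its own reverse complement, so a match lies on both strands, and matches may overlap. Capitals mark the matched bases, and each sequence runs 5′ to 3′ on the gene's strand.
HSPA6, chr1:161524290-161524539, plus strand: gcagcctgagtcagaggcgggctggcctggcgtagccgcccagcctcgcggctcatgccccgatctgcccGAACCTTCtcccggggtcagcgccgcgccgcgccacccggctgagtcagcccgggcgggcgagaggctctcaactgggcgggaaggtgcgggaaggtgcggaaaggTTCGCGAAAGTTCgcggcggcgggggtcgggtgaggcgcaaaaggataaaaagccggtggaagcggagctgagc
HSPA1A, chr6:31815293-31815542, plus strand: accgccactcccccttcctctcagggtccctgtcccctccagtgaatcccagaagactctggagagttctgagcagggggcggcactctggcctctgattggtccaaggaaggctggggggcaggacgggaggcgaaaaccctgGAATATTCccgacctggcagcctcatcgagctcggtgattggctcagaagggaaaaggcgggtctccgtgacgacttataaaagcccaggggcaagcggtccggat
HSPA1B, chr6:31827488-31827737, plus strand: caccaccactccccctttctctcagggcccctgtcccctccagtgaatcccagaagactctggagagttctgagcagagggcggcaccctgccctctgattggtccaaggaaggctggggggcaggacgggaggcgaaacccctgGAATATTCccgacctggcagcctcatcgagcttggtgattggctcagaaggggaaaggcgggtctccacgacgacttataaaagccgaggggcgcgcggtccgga
HSPA8, chr11:123062137-123062386, minus strand: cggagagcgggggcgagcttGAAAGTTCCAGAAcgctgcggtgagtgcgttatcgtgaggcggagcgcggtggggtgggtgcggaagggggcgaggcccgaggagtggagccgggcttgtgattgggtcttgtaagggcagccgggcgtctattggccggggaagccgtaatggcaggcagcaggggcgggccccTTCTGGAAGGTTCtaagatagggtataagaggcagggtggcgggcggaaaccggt
DNAJB1, chr19:14518398-14518647, minus strand: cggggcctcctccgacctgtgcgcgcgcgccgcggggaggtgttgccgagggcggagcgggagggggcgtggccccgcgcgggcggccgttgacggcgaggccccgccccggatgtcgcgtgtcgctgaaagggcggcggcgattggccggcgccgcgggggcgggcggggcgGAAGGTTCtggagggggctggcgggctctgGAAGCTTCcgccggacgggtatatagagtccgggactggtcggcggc
HSPB1, chr7:76302423-76302672, plus strand: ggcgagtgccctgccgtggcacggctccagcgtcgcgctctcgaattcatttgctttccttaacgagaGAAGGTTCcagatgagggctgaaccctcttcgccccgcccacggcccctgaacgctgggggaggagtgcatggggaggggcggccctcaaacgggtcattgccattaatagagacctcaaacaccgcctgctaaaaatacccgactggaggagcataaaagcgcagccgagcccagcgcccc
HSPD1, chr2:197499841-197500090, minus strand: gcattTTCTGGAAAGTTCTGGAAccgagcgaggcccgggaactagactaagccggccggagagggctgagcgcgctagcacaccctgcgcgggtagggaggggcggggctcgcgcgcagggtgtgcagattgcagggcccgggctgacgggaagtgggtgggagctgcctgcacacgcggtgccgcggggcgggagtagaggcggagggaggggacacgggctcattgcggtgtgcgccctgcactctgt

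HSPA6, HSPA8 and HSPD1 held overlapping matches, so that at least 3 units followed each other without a gap. The longer string GAANNTTCNNGAA or its reverse complement stood in 3 of the 9 members searched and in 0.441% of 35116 RefSeq promoters of the same length. HSPA6 had its run 62 to 74 bases before the start and a further single match 173 to 180 bases before it. HSPA1A and HSPA1B each carried the same single match, GAATATTC, about 100 bases before the start and upstream of a TATAAA box, a string found in 10.7% of the promoters. DNAJB1 had 2 separate matches in the printed window and none in its 2 other windows. HSPB1 had 1 match. In all, 7 of the 9 members searched had at least 1 match of either string in any window, against 11.6% of the promoters. The units differ: each member was counted once over the 12 windows of the members, whereas the shares are of single promoters. The windows of HSPH1 and BAG3 held none of these letters, which says nothing of binding by HSF1.

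Between the 2 sets of vehicle libraries, the inducible HSP70 genes differed most. Levels are given as CPM, counts per library scaled to a common total by TMM over the 12 libraries, with the SD over 3 libraries. HSPA6 (chromosome 1, 161524540 to 161526910, GRCh38, plus strand), a chaperone gene nearly silent without stress, stood at 23.4, 23.8 and 21.0 CPM in the vehicle libraries of the DEX table and at 0.497, 0.377 and 0.414 CPM in those of the NE table. Every library of the first set was far above every library of the second, and the means were 22.7 ± 1.53 and 0.430 ± 0.0615 CPM. The fitted log2 difference, NE table minus DEX table, was -5.72 (SE 0.18), that is 52.6-fold higher beside DEX, and only 2 of 15249 genes with a symbol had a lower value. HSPA6 had 450 to 543 counts in each vehicle library beside DEX and 14 to 16 in each beside NE. Its near-identical copy HSPA7, with a transcript 98.6% identical over 1926 aligned bases, had 0 to 6 counts in any library, so the split between the pair may touch single values.

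HSPA1A (chromosome 6, 31815464 to 31817946, plus strand), the main stress-inducible HSP70 gene, was at 613, 603 and 567 CPM in the vehicle libraries of the DEX table and at 69.4, 64.0 and 70.2 CPM in those of the NE table. The sets did not overlap, and the log2 difference of -3.13 (SE 0.10) was an 8.76-fold higher level beside DEX. Its neighbour HSPA1B (31827735 to 31830255), which encodes the same protein, stood at 31.8, 34.7 and 27.5 CPM against 10.01, 0.0539 and 0.359 CPM. The single value near 10 CPM came from vehicle replicate 1 of the NE table: the log2 difference was -3.25 (SE 0.95) with that library and -7.22 without it. The split of counts between HSPA1A and HSPA1B is uncertain, because the transcripts matched at 2282 of 2401 aligned bases and shared a run of 1715 identical bases. HSPA1B took 4.63% to 5.44% of the summed counts in the vehicle libraries beside DEX and 0.0842% to 12.6% in those beside NE. The summed counts do not depend on that split and gave 644, 638 and 594 CPM against 79.4, 64.1 and 70.5 CPM, a log2 difference of -3.13 (SE 0.10) or 8.77-fold.

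**Figure D1:**
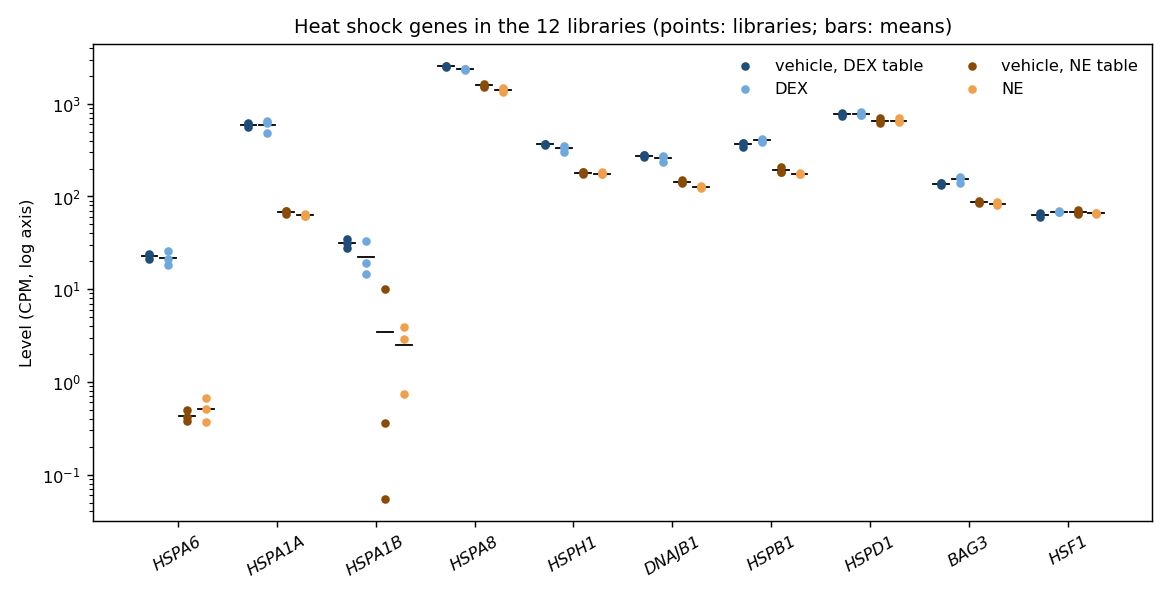
Level of each of the 10 genes in CPM on a log10 axis, 1 point per library and a bar at the group mean, for vehicle and DEX libraries of the DEX table and vehicle and NE libraries of the NE table. HSPA6, HSPA1A and HSPA1B separate the tables by the widest gaps, with HSPA6 means of 22.7 and 0.430 CPM in the vehicle libraries, whereas the 4 group means of HSF1 lie between 63.8 and 68.5 CPM.

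The constitutive and co-chaperone genes differed in the same direction by less. HSPA8 (chromosome 11, 123057489 to 123063230, minus strand), which serves in everyday folding and in uncoating of clathrin vesicles, stood at 2500, 2574 and 2549 CPM beside DEX and 1636, 1535 and 1569 CPM beside NE. The sets did not overlap, and the log2 difference was -0.69 (SE 0.04), or 1.61-fold. HSPH1 (chromosome 13, 31134974 to 31162388, minus strand), an HSP110 protein that exchanges nucleotide on HSP70, was at 362, 365 and 367 CPM against 182, 176 and 183 CPM, a log2 difference of -1.02 (SE 0.05) or 2.03-fold. DNAJB1 (chromosome 19, 14514770 to 14529770, minus strand), the HSP40 that hands substrates to HSP70 and helps it release HSF1 from DNA, was at 282, 281 and 266 CPM against 149, 139 and 142 CPM. Its log2 difference was -0.95 (SE 0.05), or 1.93-fold, again without overlap. BAG3 (chromosome 10, 119651370 to 119677819, plus strand), a nucleotide exchange factor that links HSP70 to selective autophagy, was at 139, 141 and 133 CPM against 89.0, 85.7 and 86.6 CPM. The log2 difference of -0.66 (SE 0.05), or 1.58-fold, exceeded the spread within either set.

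HSPB1 (chromosome 7, 76302544 to 76304295, plus strand), the small heat shock protein HSP27, which holds unfolded protein and stabilizes actin filaments, was at 376, 382 and 339 CPM beside DEX and 208, 182 and 184 CPM beside NE. Its log2 difference was -0.93 (SE 0.06), or 1.91-fold. HSPD1 (chromosome 2, 197486581 to 197516737, minus strand), the HSP60 chaperonin of the mitochondrial matrix, was at 793, 770 and 737 CPM against 704, 650 and 619 CPM. These sets lay close together without overlapping, and the log2 difference was -0.22 (SE 0.05), or 1.17-fold. HSF1, the transcription factor itself, was at 65.5, 65.2 and 60.5 CPM against 71.2, 66.0 and 64.7 CPM. Its sets overlapped, with a log2 difference of 0.08 and a 95% interval from -0.02 to 0.18, and of 0.29 after a correction for GC content and transcript length. HSF1 activity is set largely by its release from chaperones and by phosphorylation, which transcript counts do not measure. HSPA8 and HSPD1 have many processed pseudogenes, so their counts may include or lose some reads.

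In 9 of the 10 members every vehicle library beside NE lay below every one beside DEX. The share of all genes with such a separation was not counted. Over all 15952 tested genes, edgeR's quasi-likelihood test called 25.8% lower beside NE and 51.6% in either direction. The members were chosen on this contrast, so nothing is read from their count. The median log2 difference was -0.94 over the members and -0.01 over all genes tested.

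The treated libraries of the 2 tables were not used in the choice. Whatever differs between the tables is shared by their vehicle and treated libraries, so the calls below are no separate support. In the treated libraries all members but HSF1 were called lower in the NE table. This comparison was added after the data were seen, and in it the table and the treatment cannot be told apart. HSPA6 stood at 21.1, 26.0 and 18.1 CPM with DEX and at 0.663, 0.508 and 0.365 CPM with NE. Every NE library was far below every DEX library, and the log2 difference, NE minus DEX, was -5.41 (SE 0.18, adjusted p = 2.17e-11 by edgeR's quasi-likelihood test with Benjamini-Hochberg adjustment). HSPA1A was at 618, 654 and 478 CPM with DEX and 62.0, 65.1 and 61.1 CPM with NE, without overlap and with a log2 difference of -3.22 (SE 0.10, adjusted p = 7.5e-11).

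Of the 10 members 9 passed that test, all lower in the NE libraries, against 26.5% of all tested genes called lower and 53.0% called in either direction. DESeq2 called 9 as well. HSPB1, DNAJB1, HSPH1, BAG3, HSPA8 and HSPD1 had log2 differences of -1.19, -1.03, -0.90, -0.88, -0.73 and -0.23 (adjusted p = 8.62e-10, 1.88e-09, 3.97e-09, 6.09e-09, 1.02e-08 and 0.00316). HSPA1B had -3.16 (SE 1.00, adjusted p = 0.0271). It did not pass once DEX replicate 3 (adjusted p = 0.0793), NE replicate 2 (0.0864) or NE replicate 3 (0.0663) was left out. HSF1 was not called (log2 difference -0.06, 95% interval -0.16 to 0.04, adjusted p = 0.340), and after a correction for GC content and transcript length its difference was 0.12 (adjusted p = 0.00741).

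**Figure D2:**
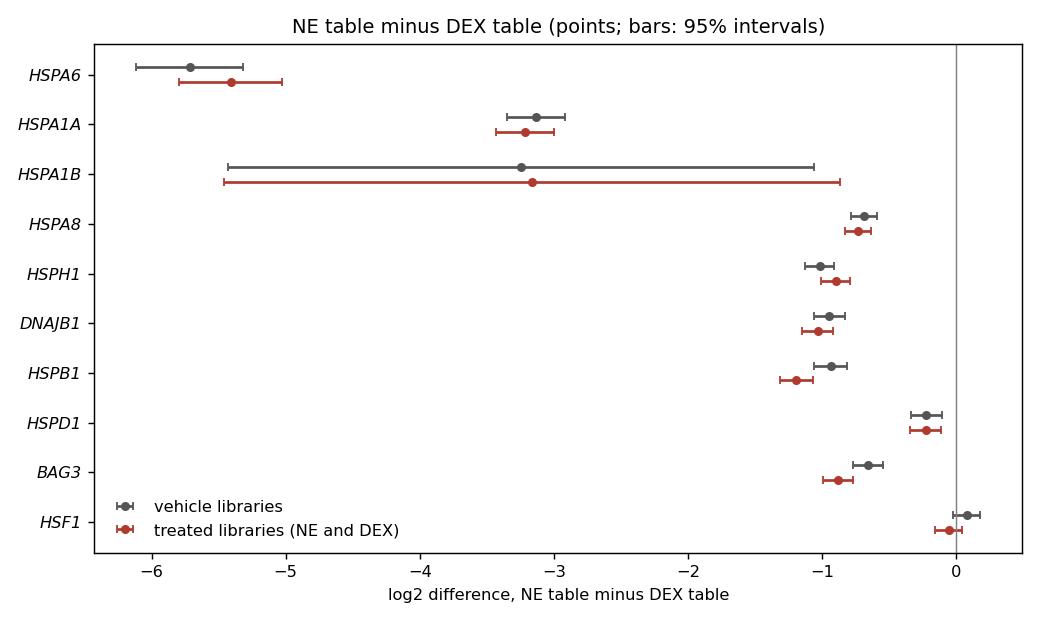
Log2 difference between the tables for each member, NE table minus DEX table, as points with 95% intervals, once for the vehicle libraries and once for the treated libraries, with a line at 0. HSPA6 lies at -5.72 and -5.41 and HSF1 next to 0, with the other members between. The vehicle values chose the genes. The treated values did not, but they share whatever differs between the tables and are no separate support.

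The order of the members per kilobase of transcript also differed between tables. On the scale of CPM per kilobase, HSPA8 was the highest in every group, at 1032 in the vehicle libraries of the DEX table and 641 in those of the NE table. HSPA1A ranked 4 of 10 in the vehicle libraries beside DEX, at 239 ± 9.72, between HSPD1 at 312 and DNAJB1 at 122. In the vehicle libraries beside NE it ranked 8, at 27.3 ± 1.35, below HSF1 at 31.4 ± 1.60. HSPH1 and BAG3 were close neighbours there, at 34.7 ± 0.75 and 33.9 ± 0.67 CPM per kilobase, and did not differ beyond their spread. HSPA6 was the lowest in both sets, at 9.58 and 0.181 CPM per kilobase.

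Other chaperone genes were read from 4 lists that hold no members, of which the cytosolic one also holds some HSF1 targets with products elsewhere, such as HSPE1 and SERPINH1. Of 46 other cytosolic heat shock genes, 45 were tested, and between the vehicle sets 28 were lower beside NE, 3 were higher and 14 did not pass. Their median log2 difference was -0.27. CRYAB, a small heat shock protein, was 13.6 ± 0.8 CPM beside DEX and 4.25 ± 0.3 CPM beside NE (log2 difference -1.67, adjusted p = 1.26e-09 by edgeR's quasi-likelihood test). HSPA2, an HSP70 known best from the testis, had -1.24, HSPB7 had -0.99, the HSP40 gene DNAJA1 had -0.88 and the secreted chaperone clusterin (CLU) had -0.84 (adjusted p = 3.02e-10, 1.25e-05, 9.6e-09 and 1.83e-09). The genes higher beside NE were BAG4, IER5 and HSPA13 (0.47, 0.28 and 0.14), and HSPA13 did not pass after the GC content and length correction. IER5 is itself known as an HSF1 target.

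The 3 other lists hold the cytosolic chaperonin and the chaperones of the endoplasmic reticulum and the mitochondria. In the TRiC and prefoldin list 4 of 14 genes were lower and 0 higher, with a median of -0.12. They were PFDN2, PFDN4, PFDN1 and CCT2 (log2 differences -0.36, -0.31, -0.19 and -0.15), of which PFDN2, PFDN1 and CCT2 lost their call in the GC-corrected fit. Endoplasmic reticulum chaperones were lower in 8 of 15 and higher in 2, with a median of -0.12, led by CRELD2, DNAJB9, SDF2L1, MANF and DNAJB11 (-0.63, -0.49, -0.48, -0.47 and -0.46), while SIL1 and DNAJC3 were higher (0.33 and 0.18). SDF2L1 and DNAJC3 did not keep their calls in the GC-corrected fit. Of 14 mitochondrial chaperones and proteases 2 were lower and 4 higher, with a median of -0.02. TRAP1, the mitochondrial HSP90, was higher (0.48), as were CLPB, CLPX and AFG3L2 (0.33, 0.24 and 0.15), and the proteases CLPP and LONP1 were lower (-0.24 and -0.16), both losing the call in that fit, in which CLPP changed sign (0.0076). Beside these counts stand 25.8% of all genes called lower and 25.8% called higher.

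**Figure D3:**
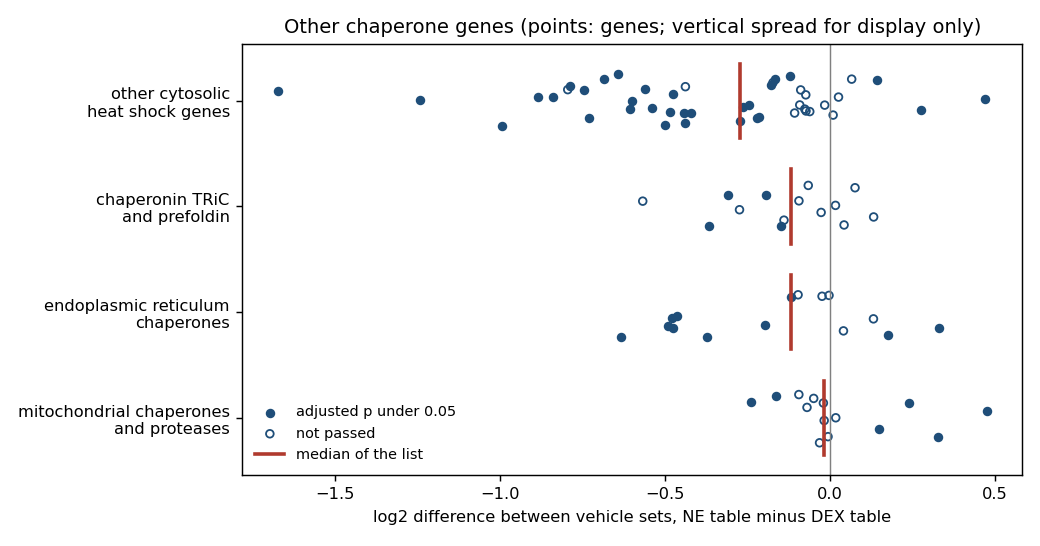
Log2 difference between the vehicle sets, NE table minus DEX table, with 1 point per tested gene in each chaperone list, filled where the adjusted p was under 0.05, and a bar at the list median. The median is -0.27 for the other cytosolic heat shock genes and -0.02 for the mitochondrial chaperones and proteases, and the lowest point is CRYAB at -1.67.

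Other measures moved with the same split of tables. All 13 mitochondrially encoded genes were lower beside NE, with a median log2 difference of -1.39, and they took 3.63% to 3.92% of counts in the vehicle libraries beside DEX and 1.40% to 1.52% in those beside NE. Leaving them out of the library sizes gave -5.71 for HSPA6 and -3.13 for HSPA1A. Of 10 tested trabecular meshwork markers 7 were lower and 1, VIM, was higher beside NE. Their summed level was 3490 to 3718 CPM beside DEX and 4297 to 4575 CPM beside NE, a sum led by VIM (2548 ± 147 and 3843 ± 164 CPM), while COL4A1, a basement membrane collagen gene, was at 707 ± 36.6 and 310 ± 17.0 CPM. Of 3 tested immune markers 1 was higher and 1 lower beside NE. Their summed level, 28.9 to 31.1 CPM against 64.4 to 70.0 CPM, was almost all CD68 (27.4 ± 0.78 and 67.0 ± 3.21 CPM), while CD14 was at 2.12 ± 0.34 and 0.476 ± 0.049 CPM. CD3E was at 0 in every library and MS4A1 in those of the DEX table. Of 5 tested epithelial markers 4 were lower and 0 higher, with sums of 428 to 444 CPM against 209 to 259 CPM that were mostly KRT18 (366 ± 7.60 and 190 ± 21.98 CPM). Of 6 tested smooth muscle and pericyte markers 3 were lower and 1 higher, with sums of 200 to 208 CPM against 131 to 147 CPM. ACTA2 was at 55.1 ± 0.85 and 15.1 ± 0.77 CPM, but PDGFRB was at 73.9 ± 5.16 and 94.1 ± 10.4 CPM. Endothelial markers summed to 5.40 to 7.49 CPM against 7.61 to 8.71 CPM, with 2 of 5 tested higher and 0 lower beside NE. Melanocyte and Schwann markers summed to 29.9 to 31.6 CPM against 30.2 to 33.4 CPM, with 2 of 5 tested higher, 2 lower and TYR at 0 in the DEX table. The part of these measures in the chaperone difference was not tested, and fewer cells of a type and less RNA per cell cannot be told apart in bulk RNA. Anything that differed between the tables, including culture, library preparation and sequencing, cannot be told apart from the state of the cells.

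DEX changed none of the members past the threshold. By edgeR's quasi-likelihood test 0 of 10 passed at an adjusted p of 0.05, where 10.1% of 15133 genes were called (6.65% higher and 3.46% lower), and DESeq2 called 0. At an unadjusted p below 0.05 there were 5 members, HSPA8, HSPH1, HSPB1, BAG3 and HSF1, against 22.9% of all tested genes. HSPA6 was at 22.7 ± 1.53 CPM in vehicle and 21.7 ± 3.96 CPM in DEX libraries (log2 fold change -0.06, 95% interval -0.34 to 0.23). Summed HSPA1A and HSPA1B were at 626 ± 27.2 and 606 ± 83.4 CPM (log2 fold change -0.04, interval -0.28 to 0.19), and the DEX group, at 638, 669 and 511 CPM, spread around the vehicle values. HSPD1 had a log2 fold change of 0.01 (interval -0.09 to 0.11). These intervals leave room for changes of the sizes they span, so a missed threshold does not show that the levels were equal. Of 4 tested epithelial markers 1 was called lower with DEX, and the list sum, 428 to 444 CPM in vehicle and 322 to 338 CPM in treated libraries, followed KRT18 (366 ± 7.60 and 262 ± 9.32 CPM), while EPCAM was at 1.34 ± 0.22 and 1.24 ± 0.41 CPM. The part of these markers in the values above was not tested.

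Small shifts without overlap went both ways after DEX. BAG3 was at 139, 141 and 133 CPM in vehicle and 160, 160 and 141 CPM in DEX libraries (log2 fold change 0.16, interval 0.05 to 0.27, adjusted p = 0.0575 by edgeR). HSPB1 was at 376, 382 and 339 CPM in vehicle and 398, 419 and 390 CPM in DEX libraries (0.14, interval 0.03 to 0.25, adjusted p = 0.103). HSPH1 was at 362, 365 and 367 CPM in vehicle and 332, 354 and 302 CPM in DEX libraries (-0.15, interval -0.26 to -0.03, adjusted p = 0.101). The DEX libraries lay all above the vehicle libraries for BAG3 and HSPB1, and all below them for HSPH1. HSPA8 (-0.10) lay all below and HSF1 (0.11) all above, with adjusted p of 0.147 and 0.197 by edgeR, while DNAJB1 (-0.09) overlapped. The share of all tested genes that separated in this way was not counted, so the lack of overlap is only a description. The outcome depended on the setting: with no low-count filter HSPH1, HSPB1 and BAG3 passed, and after the GC content and length correction all 5 did. Genes called over the whole DEX table changed too, from 1066 to 2096 over the 9 other settings. BAG3 was called without DEX replicate 3 (adjusted p = 0.00821), as was HSPA1B, whose log2 fold change was -0.89 there and -0.49 with all libraries, and HSPH1 was called without DEX replicate 2.

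NE changed none of the members past the threshold either. By edgeR's quasi-likelihood test 0 of 10 passed, where 2.82% of 15630 genes were called (1.48% higher and 1.34% lower), and 2 had an unadjusted p below 0.05, HSPA8 and DNAJB1, against 13.9% of all tested genes. DESeq2 called 1, DNAJB1 (adjusted p = 0.0286). DNAJB1 was at 149, 139 and 142 CPM in vehicle and 131, 125 and 124 CPM in NE libraries (log2 fold change -0.18, 95% interval -0.28 to -0.08, adjusted p = 0.0922 by edgeR). HSPA8 was at 1636, 1535 and 1569 CPM in vehicle and 1441, 1351 and 1475 CPM in NE libraries (-0.15, interval -0.27 to -0.03, adjusted p = 0.243). HSPB1 was at 208, 182 and 184 CPM in vehicle and 179, 174 and 176 CPM in NE libraries (-0.12, interval -0.25 to 0.01, adjusted p = 0.415). For all 3 genes every NE library lay below every vehicle library, and how many of all tested genes separated in this way was not counted. With the replicate number as a block in edgeR all 3 were called (adjusted p = 0.00143, 0.00644 and 0.0456). That block also raised the calls over all genes of the NE table, which ran from 420 to 2429 genes over the other settings. The share of 2.82% therefore does not apply to the blocked calls.

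The remaining members overlapped between NE and its vehicle. Summed HSPA1A and HSPA1B were at 71.3 ± 7.70 CPM in vehicle and 65.3 ± 1.07 CPM in NE libraries (log2 fold change -0.13, interval -0.30 to 0.04). HSPA6 was at 0.430 ± 0.0615 and 0.512 ± 0.149 CPM, from 13 to 21 counts per NE library, and its interval ran from -0.41 to 0.90. HSPH1, BAG3, HSF1 and HSPD1 had log2 fold changes of -0.03, -0.06, -0.03 and 0.00. HSPA1B, at -0.44, had an interval from -4.06 to 3.17 and cannot be read on its own. Mitochondrially encoded genes summed to 13889 to 14852 CPM in vehicle and 15614 to 16103 CPM in treated libraries of this table, and 1 of the 13 was called higher. The epithelial sum was 209 to 259 CPM in vehicle and 163 to 189 CPM in NE libraries, mostly KRT18 (190 ± 21.98 and 139 ± 12.4 CPM), with 1 of 3 tested markers called lower. The melanocyte and Schwann sum was 30.2 to 33.4 and 37.4 to 39.0 CPM, mostly MITF (23.0 ± 0.94 and 28.5 ± 0.64 CPM), with 1 of 5 tested markers called higher. The part of these measures in the NE values was not tested.

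**Figure D4:**
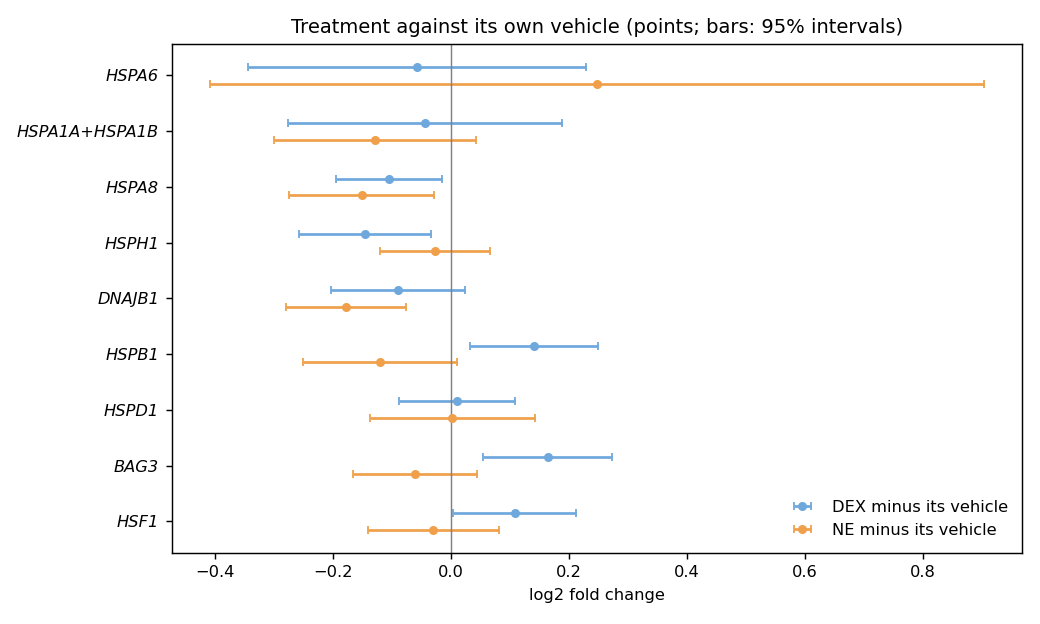
Log2 fold change of each treatment relative to vehicle within each table, as points with 95% intervals, for DEX and NE, with HSPA1A and HSPA1B summed and a line at 0. The HSPA6 value after NE, 0.25, has the widest interval, and the other points run from -0.18 (DNAJB1 after NE) to 0.16 (BAG3 after DEX).

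The effects of DEX and NE on the members were also compared with each other, as DEX minus its vehicle less NE minus its vehicle. By edgeR's quasi-likelihood test 0 of 10 passed, where 6.00% of 15952 genes were called (3.88% with a higher and 2.12% with a lower DEX effect), and 2 had an unadjusted p below 0.05, against 16.9% of all tested genes. HSPB1, with fold changes of opposite sign after DEX and NE, had a difference of 0.26 (interval 0.08 to 0.43, adjusted p = 0.0873), and BAG3 had 0.22 (0.07 to 0.38, adjusted p = 0.103). DESeq2 called HSPB1 (adjusted p = 0.0329), as did the fit with no low-count filter and the fit with the replicate block, and BAG3 passed without DEX replicate 3. Over all genes, 916 to 1613 were called in the 8 other settings. The summed HSPA1A and HSPA1B counts had 0.08 (interval -0.21 to 0.37) and HSPA6 had -0.31 (-1.05 to 0.44).

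Of the 45 other cytosolic heat shock genes tested, 4 rose and 5 fell with DEX, beside 6.65% of all genes called higher and 3.46% called lower. DNAJB4, an HSP40 best known from muscle, was at 142, 148 and 139 CPM in vehicle and 242, 234 and 220 CPM in DEX libraries, without overlap (log2 fold change 0.70, SE 0.05, adjusted p = 1.05e-07 by edgeR). BAG2, which restrains the ubiquitin ligase CHIP, rose by 0.32 (SE 0.04, adjusted p = 0.000202), and HSPA4L, an HSP110 relative, fell by 0.36 (SE 0.06, adjusted p = 0.000918). These 3 calls held in all 9 other settings and without each of the 6 libraries. CRYAB (0.28) and HSPB6 (0.17) rose and IER5 (-0.22), HSPE1 (-0.21), the partner of HSPD1, and SERPINH1 (-0.19), the collagen chaperone HSP47, fell. Each of these 5 calls was lost when at least 1 single library was left out. PFDN4 was the 1 gene of the TRiC and prefoldin list to pass (-0.19), and its call ended without any of the 6 libraries. No endoplasmic reticulum or mitochondrial chaperone of these lists passed, by edgeR.

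After NE 1 of these listed genes passed, beside 2.82% of all genes called. BAG1, a nucleotide exchange factor that couples HSP70 to the proteasome, was at 53.4, 47.0 and 44.2 CPM in vehicle and 67.6, 65.3 and 59.5 CPM in NE libraries, without overlap (log2 fold change 0.41, SE 0.08, adjusted p = 0.0339 by edgeR). Its call ended when any of NE replicates 1, 2 or 3 or vehicle replicates 2 or 3 was left out, with adjusted p up to 0.163.

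Within groups, the members also varied from library to library. For this the log2 CPM of each library was set against the mean of its group, and the summed HSPA1A and HSPA1B deviation ran from -0.24 in DEX replicate 3 to 0.16 in vehicle replicate 1 of the NE table. Across the 12 libraries DNAJB1 followed it with a Pearson correlation of 0.946, BAG3 with 0.779, HSPH1 with 0.759, HSPB1 with 0.735 and HSPA6 with 0.670, while HSPD1 had 0.556, HSPA8 0.501 and HSF1 0.225. These are descriptions: the points share library preparation, depth and 4 group means, and single libraries weigh heavily. Among named genes with an average log2 CPM of at least 1, these members stood from percentile 66.0 (HSF1) to 99.99 (DNAJB1). Without the 3 DEX libraries, 9 libraries remained, and DNAJB1 had 0.860 and HSPB1 0.865, but BAG3 fell to 0.437 and HSPH1 to 0.270, and HSF1 had 0.778. Vehicle replicate 1 of the NE table, which stood apart over all genes, had the largest deviation of the sum there, 0.16. It had 0.12 for HSPB1 and 0.08 for HSF1, and its part in these correlations was not tested.

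Among 12185 other genes, the 5 most like the summed HSPA1A and HSPA1B pattern over the 12 libraries included the calcineurin inhibitor RCAN1 at 0.947, the phosphatase subunit PPP1R15A at 0.915, the transcription factor KLF6 at 0.910 and spermine oxidase (SMOX) at 0.900. Over the 9 libraries without DEX, which are part of those used for the ranking, RCAN1 was at 0.867. The genes were picked as the highest of many, so these values are descriptions only.

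**Figure D5:**
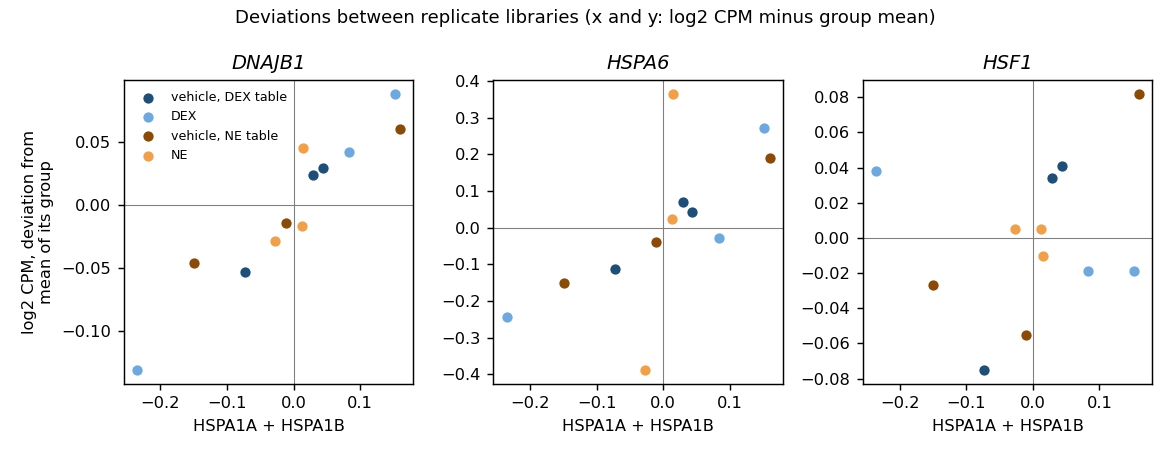
Deviation of each library from the mean of its group, in log2 CPM, for summed HSPA1A and HSPA1B on the x axes and for DNAJB1, HSPA6 and HSF1 on the y axes of 3 panels, with 1 point per library and colours for the 4 groups. The points of DNAJB1 lie nearest to a line, and DEX replicate 3, at -0.24, is the lowest on the x axes.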

How the data were processed

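The authors deposited RNA sequencing of the 12 libraries in 2 tables of estimated counts, also called expected counts, many of them fractional, which is how the unit was recognized. Aligner, counting tool, genome build and strand setting: not given in the sources used here. Therefore reads of overlapping or antisense genes may be split wrongly. Counts were rounded, with a change of at most 0.000918% in a library total. No column was left unused. Symbols matched 34436 of 37247 identifiers, and positions and lengths came from GENCODE 29 on GRCh38. Genes were filtered with filterByExpr, scaled by TMM and tested with edgeR's quasi-likelihood test with robust dispersion (edgeR 4.0.16, R 4.3.3), two-sided, with Benjamini-Hochberg adjustment over all genes tested and a threshold of 0.05. Each treatment was fitted with the vehicle libraries of its own table. Comparisons between tables and the difference of effects used a fit of all 12 libraries, and DESeq2 1.42.0 was an alternative. The procedure was tested on simulated data. The 10 members and all lists were chosen with earlier results of these data known. Besides the members, the text names per list and comparison up to 4 called genes in each direction, or 5 between the vehicle sets, by size of change at or above an average log2 CPM of 1, and the 5 genes most like summed HSPA1A and HSPA1B, of which 1 is not reported here. Other settings were size factors, filters, a correction for GC content and length, a replicate block and leaving out each library. The treated-library comparison and the omission of mitochondrially encoded genes were added after the data were seen. Depth limits HSPA6 in the NE table, at 13 to 21 counts per library.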

Additional observations from a re-analysis of the deposited data

Results flagged for a closer look

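By edgeR's quasi-likelihood test of the DEX effect minus the NE effect on the log2 scale, 6 of the 45 tested genes of the other cytosolic heat shock list and 1 of the 15 endoplasmic reticulum chaperones passed, beside 6.00% of all genes tested. DNAJB4 had a difference of 0.65 (adjusted p = 1.21e-05): it rose by 0.70 with DEX and had 0.04 with NE. BAG2 had 0.28 (adjusted p = 0.0129). BAG1, which rose with NE, had -0.45 (adjusted p = 0.0139), and HSPA4L, which fell with DEX, had -0.43 (adjusted p = 0.00723). These 4 calls held in all 8 other settings and without each of the 12 libraries. HSPA2 had -0.28 (adjusted p = 0.0497), DNAJB2 had -0.25 (adjusted p = 0.0403) and HSPA5, the HSP70 of the endoplasmic reticulum, had -0.26 (adjusted p = 0.0404). Their calls ended without 10, 11 and 10 of the 12 libraries in turn.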

How the results depend on the processing

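The members called after DEX, 0 as reported, were 3 without a filter on low counts, 5 after correcting GC content and length, 3 with the replicate block and that correction, and 0 to 2 when single libraries were left out. After NE, 0 became 1 with DESeq2, 3 with the replicate block, 1 with the GC correction and 4 with both, and stayed 0 when single libraries were left out. Members whose effects differed, 0 as reported, were 1 with DESeq2, 1 without a filter, 1 with the replicate block, 3 with the GC correction, 2 with both, and 0 to 1 when single libraries were left out. The median difference of the members between the vehicle sets, -0.94, was -0.75 with the GC correction, with or without the replicate block. The other pathway genes called between these sets, 51, stayed within 1.5 times in every setting run, and members called between the treated libraries were 8 to 10. CLPP between the vehicle sets changed sign with the GC correction (0.0076, and 0.0068 with the block), as did HSF1 between the treated libraries (0.12, and 0.12). Genes called over the whole NE table were 441 as reported, 1688 with the replicate block, 863 with the GC correction, 2429 with both and 702 in the fit of all 12 libraries. Without NE replicates 1, 2 and 3 they were 275, 150 and 160, and without vehicle replicates 1, 2 and 3 they were 658, 217 and 210. With DEX, 1530 genes were called over the table, 1066 to 2096 over the 9 other settings, and 994 without DEX replicate 2 and 983 without vehicle replicate 2. For the difference of the effects 957 genes were called, and 916 to 1613 over the 8 other settings. The member counts above moved along with these totals and are not read as a result about the members. The cause of these changes was not tested. Same-numbered treated and vehicle libraries correlated in their deviations by -0.02, 0.04 and -0.11 in the DEX table and 0.18, 0.04 and 0.10 in the NE table. Differently numbered ones had -0.08 to 0.11 in the DEX table and -0.13 to 0.04 in the NE table. The main fits did not take the numbers as pairs. Whether libraries of the same number in the NE table share an effect was not tested, so the NE calls depend on that choice.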
